A study of Mus musculus with 6 samples.

Results

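A set of 10 genes whose transcripts are made by white blood cells of most or all lineages was followed in cultured mouse bone marrow cells, to ask how the leukocyte signal of the cultures differed between old and young animals. They were chosen by name: Ptprc, Laptm5, Cd53, Coro1a, Lcp1, Plek, Cd52, Arhgdib, Cd37 and Lyz2, which is 10 of the 39017 gene identifiers in the count table. All 10 were detected in every library and all 10 entered the test across 15567 genes. The libraries came from 3 cultures labelled old (wild-type BALB/c mice of more than 78 weeks) and 3 labelled young (wild-type BALB/c mice of 3 weeks). Cells from crushed femora, tibiae and humeri were plated, those that did not attach were washed off, and the attached cells were expanded in serum medium; the submitters describe them as macrophages positive for F4/80 and CD169. RNA of 10000 cells was sequenced per library. The labels do not say whether each library had its own mouse or whether mice were pooled, so a p-value here refers to library-to-library spread, which may be technical.

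Leukocytes share a set of proteins that other cells lack, because they crawl, engulf and signal in ways that tissue cells do not. CD45, the product of Ptprc, is the membrane phosphatase that keeps Src-family kinases ready to fire, and coronin 1A, L-plastin and RhoGDI2 are the leukocyte versions of cytoskeletal regulators that every cell has in some form. CD53 and CD37 are leukocyte tetraspanins, CD52 is a short lipid-anchored surface peptide, LAPTM5 is a lysosomal membrane protein that limits antigen receptor levels, and pleckstrin is a substrate of protein kinase C. Lysozyme M, encoded by Lyz2, is a bactericidal enzyme of macrophages, monocytes and neutrophils, and it is the one member that lymphocytes do not make in quantity. In a culture that also holds stromal cells, the summed level of such genes follows the leukocyte part of the RNA, and fewer leukocytes cannot be told apart from less of these transcripts per leukocyte.

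Many leukocyte genes are driven by PU.1, an ETS-family factor of myeloid and B cells that binds a purine-rich element called the PU box. The windows from 250 bases before to 50 bases after the start site were taken from RefSeq (GRCm38.p6) and searched on both strands for the letters GAGGAA. Windows were given for 9 of the 10 genes, all but Cd52. Of their 14 windows, 6 held the letters (42.9%), against 28.3% of 32851 windows of the same length over all genes. The 6 belonged to Ptprc, Laptm5, Cd53, Plek, Arhgdib and Cd37. A second search, for the RUNX core TGTGGT, matched 3 of the 14 windows and 16.8% of all windows. The windows of 4 genes are shown as examples: Lyz2 and Laptm5 from the genes called lower in old cultures, one without and one with the letters, and Cd53 and Cd37, the 2 genes whose values were not negative. They lie at chr10:117282223-117282522 (minus strand), chr4:130913066-130913365 (plus strand), chr3:106790100-106790399 (minus strand) and chr7:45238790-45239089 (minus strand). Capitals mark GAGGAA or its reverse complement, and each sequence reads 5′ to 3′ on the strand of its gene.
Lyz2: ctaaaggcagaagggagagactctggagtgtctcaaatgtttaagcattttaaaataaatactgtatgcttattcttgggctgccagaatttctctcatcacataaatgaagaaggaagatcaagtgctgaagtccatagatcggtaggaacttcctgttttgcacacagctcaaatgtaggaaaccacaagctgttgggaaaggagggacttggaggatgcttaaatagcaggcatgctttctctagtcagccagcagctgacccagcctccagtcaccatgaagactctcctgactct
Laptm5: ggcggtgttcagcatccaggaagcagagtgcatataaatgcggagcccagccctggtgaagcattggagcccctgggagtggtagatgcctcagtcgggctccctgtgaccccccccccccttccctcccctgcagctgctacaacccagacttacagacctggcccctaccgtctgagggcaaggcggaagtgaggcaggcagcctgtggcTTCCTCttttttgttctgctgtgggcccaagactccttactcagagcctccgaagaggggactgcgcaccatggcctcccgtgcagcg
Cd53: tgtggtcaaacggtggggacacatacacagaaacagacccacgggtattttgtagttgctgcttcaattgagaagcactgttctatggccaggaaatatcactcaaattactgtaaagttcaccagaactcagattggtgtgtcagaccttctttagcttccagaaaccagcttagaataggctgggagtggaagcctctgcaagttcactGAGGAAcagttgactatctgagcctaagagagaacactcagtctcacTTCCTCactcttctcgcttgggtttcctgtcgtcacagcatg
Cd37: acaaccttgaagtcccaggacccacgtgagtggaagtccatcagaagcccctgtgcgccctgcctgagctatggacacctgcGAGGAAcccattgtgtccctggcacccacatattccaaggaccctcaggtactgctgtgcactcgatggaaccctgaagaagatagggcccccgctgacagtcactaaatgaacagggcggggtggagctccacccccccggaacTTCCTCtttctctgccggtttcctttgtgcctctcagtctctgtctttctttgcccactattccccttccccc
The Laptm5 match started 38 bases before the start site. Cd53 had a match 39 bases before the start site and another 8 bases after it, and Cd37 had matches 168 and 23 bases before. The Lyz2 window held no match. These letters are a description of the windows and not binding sites.

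Total counts lay between 36136137 and 43367734 in old libraries and between 34391206 and 35813492 in young ones. Counting error is thus small for every member, and relatively largest for Cd52 and Cd37, at 514 to 1106 counts per library. Values are CPM (counts relative to a library's total after TMM scaling) unless named otherwise, and a gene is called where its edgeR p, adjusted over all tested genes, is under 0.05. Stromal transcripts were abundant beside the leukocyte ones. The summed level of 11 stromal markers, with the collagen gene Col1a1 at their head, was 23561 to 29678 CPM in old and 30946 to 68886 CPM in young libraries, with young replicate 3 highest, and their part in the values of the leukocyte genes was not tested. Young replicate 3 stood apart from the other 5 libraries on the second principal component (16.1% of the variance). Calls of the members that rest on it are given with and without it. Sums, family shares and spreads were not computed again without it. All 14 macrophage markers were detected in both ages, though Marco had only 2, 12 and 26 counts in old libraries. The dendritic cell gene Clec9a had 0 counts throughout.

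Of the 10 pan-leukocyte genes, 3 were lower in old cultures (Lyz2, Arhgdib and Laptm5) and 0 were higher. By the same rule 4.70% of all tested genes were lower and 5.84% higher, which is 731 and 909 genes. The median log2 fold change of the 10 genes, old over young, was -0.40, against -0.01 over all tested genes, and 8 of the 10 values were negative, against 51.5% of all genes. For 6 of the 10, every old library lay under every young one, which was so for 14.3% of all tested genes, and for 0 of the 10 every old library lay above, which was so for 15.9%. The values ran from -0.97 for Lyz2 to 0.18 for Cd53. Without young replicate 3, 6 of 10 were called lower, adding Ptprc, Coro1a and Cd52, where 7.32% of all tested genes were lower, and the median was -0.43. DESeq2 also called 6 lower, against 7.30% of all tested genes, and limma-voom called 3 lower, where 709 of 15567 tested genes were lower. Neither called a member higher, where DESeq2 called 1331 and limma-voom 942 of all tested genes higher. At an unadjusted p under 0.05, 7 members were lower and 0 higher, where 23.8% of all tested genes passed in either direction. Scaling to 10 housekeeping genes moved the median of all genes by 0.11 and gave 2 members lower, with 1101 genes higher and 507 lower over the whole table.

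**Figure D1:**
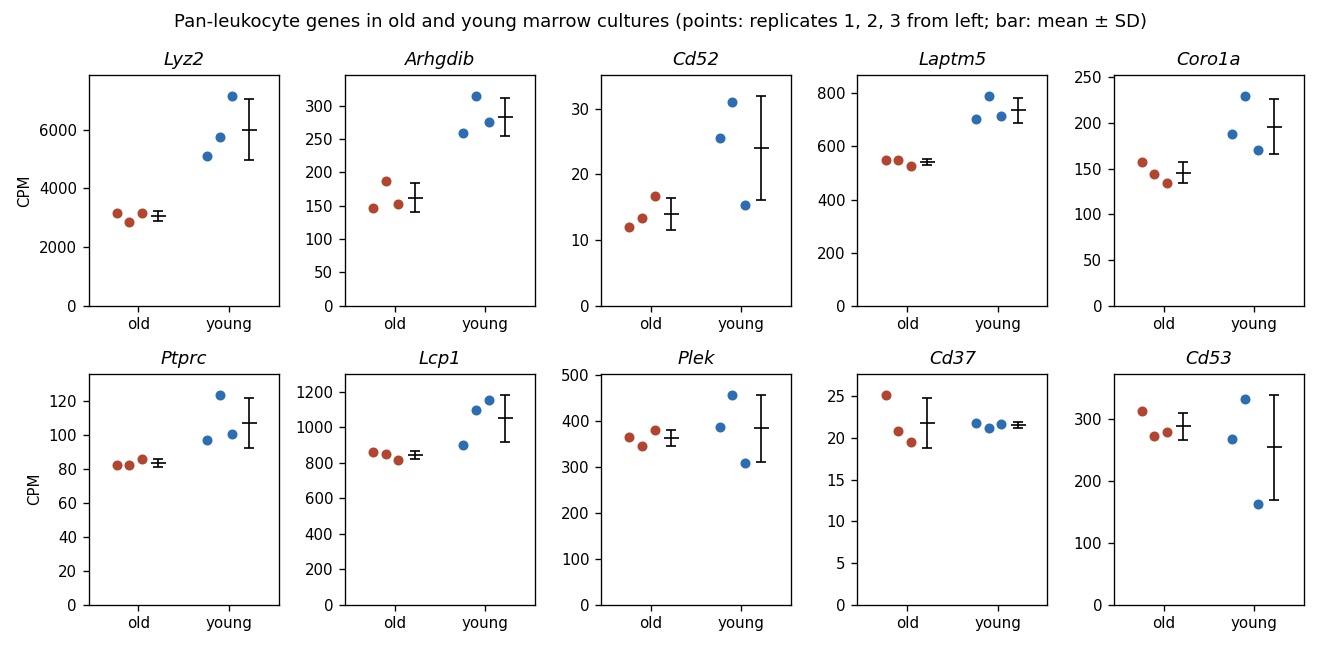
CPM of each pan-leukocyte gene (vertical axes, from 0) in the 3 old libraries (red, left) and the 3 young libraries (blue, right), with mean ± SD as bars, ordered by log2 fold change. Old points lie below all young points for Lyz2, Arhgdib, Laptm5, Coro1a, Ptprc and Lcp1, and the ages overlap for Cd52, Plek, Cd37 and Cd53.

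The secreted and lysosomal members were both lower. Lyz2 (ENSMUSG00000069516, chromosome 10 at 117277331 to 117282321 of mm10) had 3173, 2872 and 3156 CPM in old replicates 1, 2 and 3, against 5104, 5764 and 7161 CPM in young replicates 1, 2 and 3. Every old library lay well under every young one. Old over young, this is a log2 fold change of -0.97 (SE 0.14, edgeR adjusted p = 0.00629), 1.96-fold lower, and it stayed called on leaving out each library in turn (adjusted p up to 0.0421). Laptm5 (ENSMUSG00000028581, chromosome 4 at 130913125 to 130936141) had 551, 548 and 527 CPM in old and 704, 791 and 716 CPM in young libraries. The old values were nearly equal and all below the young ones. The fold change of -0.44 on the log2 scale (SE 0.08, adjusted p = 0.0136) is 1.36-fold lower. It did not pass without old replicate 1, 2 or 3 (adjusted p = 0.0692, 0.0708 and 0.0697), nor with scaling to housekeeping genes (-0.33, adjusted p = 0.0643) or to other leukocyte genes (-0.08, adjusted p = 0.501).

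Lyz1, a near copy of Lyz2 that lies beside it on the chromosome and is known from Paneth cells of the gut, was lower as well. It had 9.72, 8.88 and 9.88 CPM in old and 19.9, 25.8 and 31.2 CPM in young libraries (log2 fold change -1.43, SE 0.18, adjusted p = 0.00347). Reads of Lyz2 can be counted for such a copy, and how the authors treated reads with several matches is not given in the sources used here. Lyz1 had 3.06, 3.09 and 3.13 counts per 1000 Lyz2 counts in old libraries and 3.90, 4.48 and 4.36 in young ones. The ratio was nearly constant within the old group and did not overlap between ages.

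The cytoskeletal regulators had negative values throughout, and 1 of the 3 passed. Arhgdib (ENSMUSG00000030220, chromosome 6 at 136923655 to 136941899), which encodes the GDP-dissociation inhibitor RhoGDI2, had 146, 187 and 152 CPM in old and 258, 315 and 275 CPM in young libraries. The highest old value stayed below the lowest young one. On the log2 scale the difference was -0.81 (SE 0.12, adjusted p = 0.00808), 1.75-fold lower, and it passed without each library in turn (adjusted p up to 0.0444). Coro1a (ENSMUSG00000030707, chromosome 7 at 126699773 to 126707787), which encodes the coronin that binds actin at the leukocyte cortex, had 158, 144 and 135 CPM in old and 188, 229.8 and 171 CPM in young libraries. The groups did not overlap, but young replicate 3 was close to old replicate 1, and the change missed the threshold (log2 fold change -0.43, SE 0.12, adjusted p = 0.0745; 0.0190 without young replicate 3). Lcp1 (ENSMUSG00000021998, chromosome 14 at 75131101 to 75230842), which encodes the actin-bundling protein L-plastin, had 859.6, 849 and 818 CPM in old and 898, 1096 and 1155 CPM in young libraries. Old replicate 1 lay just under young replicate 1, and the log2 fold change of -0.32 (SE 0.11) did not pass (adjusted p = 0.120, and 0.0411 without young replicate 1).

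Neither Ptprc nor Cd52, both surface members, passed with all libraries. Ptprc (ENSMUSG00000026395, chromosome 1 at 138062861 to 138175708) had 82.0, 82.0 and 85.8 CPM in old and 96.6, 123 and 100.4 CPM in young libraries. The groups did not overlap, and the log2 fold change of -0.36 (SE 0.11) missed the threshold with all libraries (adjusted p = 0.0837) and reached it without young replicate 3 (adjusted p = 0.0495). Cd52 (ENSMUSG00000000682, chromosome 4 at 134082448 to 134095082) had 12.0, 13.3 and 16.7 CPM in old and 25.6, 31.1 and 15.4 CPM in young libraries. Young replicate 3 fell inside the old range while the other young libraries lay far above it. With all libraries the difference of -0.78 (log2, SE 0.26) did not pass (adjusted p = 0.120), and it was -1.01 without young replicate 3 (adjusted p = 0.00949). Of the exon length of Cd52, 14.5% is shared with Crybg2, which had 0 to 2 counts in old and 3 to 12 counts in young libraries.

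Neither tetraspanin gene passed the test. Cd53 (ENSMUSG00000040747, chromosome 3 at 106759921 to 106790149) had 313, 273 and 278 CPM in old and 268, 332 and 163 CPM in young libraries. The old values lay inside the young range, and young replicate 3 was lowest of all. The difference of 0.18 (log2, SE 0.23) did not pass (adjusted p = 0.719) and was -0.06 without young replicate 3. Cd37 (ENSMUSG00000030798, chromosome 7 at 45233632 to 45239115), which is highest on mature B cells, had 25.2, 20.8 and 19.5 CPM in old and 21.8, 21.2 and 21.7 CPM in young libraries. The young values were almost identical and the old ones spread around them (log2 fold change 0.02, SE 0.12, adjusted p = 0.952). Beside Cd37, 6 of 8 tested B and plasma cell markers were higher in old cultures (3 to 6 on leaving out 1 library) and 0 lower. Over all tested genes, 5.84% were higher and 4.70% lower. The markers had a summed level of 93.8 to 172 CPM in old and 12.9 to 23.5 CPM in young libraries. Their part in the Cd37 value was not tested.

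Plek (ENSMUSG00000020120, chromosome 11 at 16971206 to 17052381), the kinase C substrate, had 365, 346 and 379.5 CPM in old and 388, 456 and 309 CPM in young libraries. The old libraries lay close together inside the young range (log2 fold change -0.08, SE 0.14, adjusted p = 0.800), and the sign turned without young replicate 2 (0.06) and with housekeeping scaling (0.04). Pleckstrin is also abundant in platelets. Of 7 megakaryocyte markers, 4 were higher in old cultures (1 to 6 on leaving out 1 library), where 5.84% of all tested genes were higher. The markers had a summed level of 234 to 324 CPM in old and 50.4 to 87.8 CPM in young libraries. Their part in the Plek value was not tested.

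**Figure D2:**
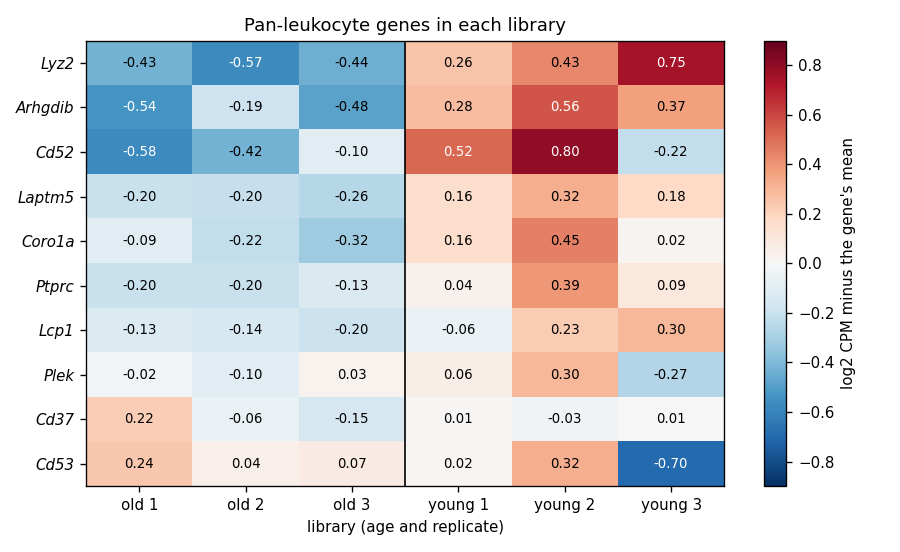
Log2 CPM of each pan-leukocyte gene minus its own mean over the 6 libraries (colour and printed value), with old libraries left of the line and young libraries right of it. Young replicate 3 is at -0.70 for Cd53 and -0.22 for Cd52 but at 0.75 for Lyz2, and young replicates 1 and 2 are each above the mean for 9 of the 10 genes.

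For 8 of the 10 genes the young libraries spread more widely than the old ones. The coefficient of variation over the 3 libraries was 2.33% in old and 6.40% in young libraries for Laptm5, 2.63% and 13.6% for Ptprc, and 7.57% and 33.4% for Cd53. Arhgdib and Cd37 were the exceptions, at 13.5% in old and 10.2% in young libraries for Arhgdib and 13.7% and 1.46% for Cd37. With 732 to 763 Cd37 counts per young library, counting error alone would usually give a wider spread than 1.46%. A coefficient over 3 libraries is a loose estimate. Young replicate 3, set over the mean of young replicates 1 and 2, had 0.544 times the Cd53 level, 0.542 times the Cd52 level and 0.732 times the Plek level. The same library had 1.32 times the Lyz2 level and 1.16 times the Lcp1 level, so its values lay on both sides of the other young libraries. Young replicates 1, 2 and 3 were above a gene's mean over the 6 libraries for 9, 9 and 7 of the 10 members, with median deviations of 0.11, 0.36 and 0.06 (log2). Old libraries had median deviations of -0.16, -0.19 and -0.17.

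Together the 10 genes took 0.575%, 0.540% and 0.555% of all counts in old libraries and 0.810%, 0.936% and 0.948% in young ones. Lyz2 alone made up 53.8% to 56.7% of that in old and 62.9% to 71.0% in young libraries. With Lyz2 set aside, the other 9 genes took 0.241% to 0.254% of counts in old and 0.275% to 0.347% in young libraries. The ages stayed apart in both sums, by a smaller ratio without Lyz2.

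Levels per kilobase of the principal transcript put the members in a similar order at both ages. Lyz2 led by far, with a mean of 2331 CPM per kb in old and 4567 CPM per kb in young cultures. Below it in young cultures came Laptm5 at 283, Lcp1 at 273 and Arhgdib at 237 CPM per kb, neighbours that did not differ beyond their spread over libraries, then Cd53 at 146, Coro1a at 112 and Plek at 93.6, which overlapped as neighbours too. Cd52 (46.7), Ptprc (22.7) and Cd37 (17.6) followed with no overlap between neighbours. In old cultures Lcp1 (219) stood above Laptm5 (208) and Cd53 (165) above Arhgdib (136), and the pairs Plek (88.6) with Coro1a (83.2) and Cd37 (17.8) with Ptprc (17.7) overlapped. Ptprc, the gene that defines leukocytes by antibody staining, was among the least abundant members at the RNA level.

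For 8 of the members (all but Cd52 and Lyz2), genes of the same family that are not restricted to leukocytes were read as well. They are called broad paralogs here, though Arhgdig and Plek2 were low in these cultures. Of 13 broad paralogs tested, edgeR called 0 higher and 0 lower, where 5.84% of all tested genes were higher and 4.70% lower. On leaving out 1 library, 0 to 1 paralogs were called in each direction. At an unadjusted p under 0.05, 2 passed in each direction, where 23.8% of all tested genes passed in either direction. DESeq2 called 2 higher and 1 lower, and limma-voom called 0. The median log2 fold change of the 13 paralogs was -0.03. The remaining paralog, Plek2, had 0 to 2 counts in old and 0 to 4 counts in young libraries and was not tested. Pls3, the plastin of non-blood cells, averaged 466 ± 19.6 CPM in old and 419.8 ± 24.4 CPM in young libraries. Arhgdia, the common RhoGDI, averaged 1048 ± 36.0 CPM in old and 1173 ± 197 CPM in young libraries (SD, n = 3 each). Laptm4a, Laptm4b, Coro1b, Coro1c, Ptpra, Cd63, Cd81 and Cd82 had log2 fold changes between -0.24 and 0.14. The tetraspanin genes Cd9 (0.28, adjusted p = 0.0682) and Cd151 (0.66, adjusted p = 0.0560) and the low-level Arhgdig (-0.96, adjusted p = 0.0585) came closest to the threshold. Coro1b shares 13.5% of its exon length with other genes and Cd9 10.7%.

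The share of a family's counts taken by its leukocyte member does not depend on how libraries are scaled. Only the members and the broad paralogs named above were summed, so other genes of a family are left out. Lcp1 took 63.8%, 64.9% and 64.4% of plastin counts (Lcp1 plus Pls3) in old libraries and 68.1%, 73.5% and 72.3% in young ones. The groups did not overlap and the means differed by -6.91 percentage points. Arhgdib took 12.6%, 15.0% and 12.3% of RhoGDI counts in old and 19.9%, 22.4% and 16.4% in young libraries, again without overlap. For Laptm5 the share was 40.2%, 43.4% and 40.8% in old and 43.0%, 47.9% and 48.8% in young libraries, where young replicate 1 fell below old replicate 2. Coro1a took 15.3% to 16.7% of the sum with Coro1b and Coro1c in old and 15.6% to 21.7% in young libraries. Ptprc took 27.1% to 28.0% of the sum with Ptpra in old and 25.0% to 33.4% in young libraries. For Coro1a and Ptprc, young replicate 3 alone among the young libraries lay within or under the old range. For Cd53 the share among 6 tetraspanin genes was 11.6% ± 0.649 in old and 10.7% ± 3.17 in young libraries, and for Cd37 0.989% ± 0.129 and 1.02% ± 0.0540 (SD, n = 3 each). No p-value is given for these shares, since an exact permutation of 3 against 3 libraries cannot go below 0.1.

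**Figure D3:**
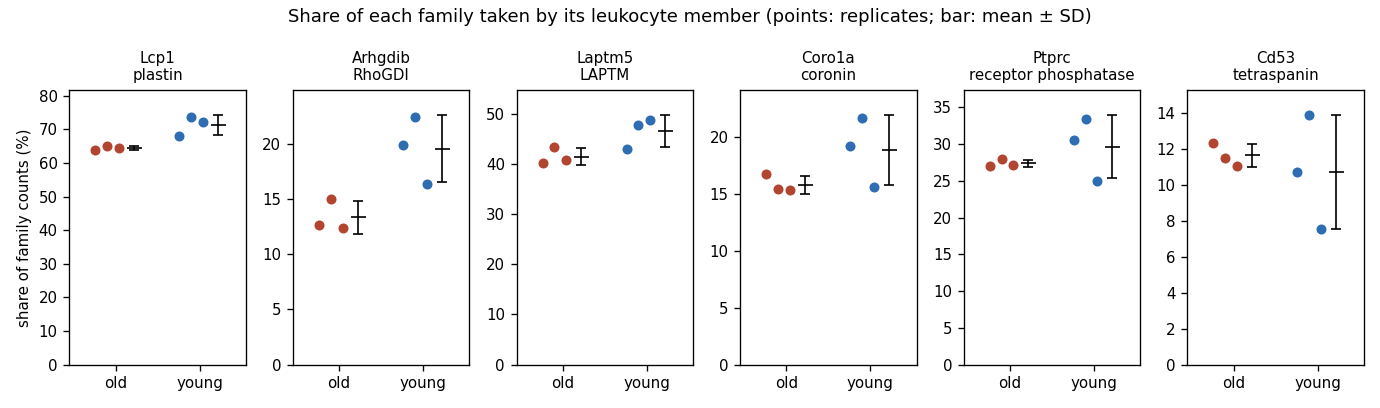
Share of the summed counts of the family genes read here (percent, axes from 0) that belongs to the leukocyte member, in old (red, left) and young (blue, right) libraries, with mean ± SD as bars. Old and young points separate for Lcp1 and Arhgdib, and young replicate 3 is the lowest young point for Arhgdib, Coro1a, Ptprc and Cd53.

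Other genes restricted to leukocytes had the same median. Of 27 such genes, all tested, 12 were lower in old cultures (3 to 15 on leaving out 1 library) and 0 higher. Over all tested genes, 4.70% were lower and 5.84% higher. The median log2 fold change of the 27 genes was -0.40. None of the 27 was higher by DESeq2 or limma-voom, or at an unadjusted p under 0.05. The count was 3 without old replicate 1, 4 without old replicate 2, 6 without old replicate 3 and 7 without young replicate 2. It was 9 without young replicate 1 and 15 without young replicate 3. Over all tested genes the same 6 fits, in that order, called 309, 294, 424, 494, 432 and 1168 lower, against 731 with all libraries. Gmfg, a regulator of branched actin, was at 12.3 ± 0.769 CPM in old and 31.3 ± 7.08 CPM in young libraries (log2 fold change -1.35, adjusted p = 0.00499). Arhgap30, a GTPase-activating protein, was at 54.3 ± 3.19 CPM in old and 85.5 ± 8.02 CPM in young libraries (SD, n = 3 each). Hcls1, a cortactin-like protein of blood cells, was at 40.4 ± 1.12 CPM in old and 56.8 ± 2.26 CPM in young libraries and was no longer called when old replicate 1 or old replicate 2 was left out (adjusted p up to 0.0574). Lsp1, an actin-binding phosphoprotein, had a log2 fold change of -1.06 (adjusted p = 0.0103; 0.0519 without old replicate 1). Spi1, which encodes PU.1, was at 110 ± 1.42 CPM in old and 142 ± 9.48 CPM in young libraries (log2 fold change -0.37, adjusted p = 0.0261; up to 0.113 without 1 library).

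Among genes around CD45 and its kinase substrates, Lyn was lower in old cultures. Lyn, a Src-family kinase that myeloid and B cells use, was at 97.1 ± 2.97 CPM in old and 155 ± 15.3 CPM in young libraries (SD, n = 3 each; log2 fold change -0.68, adjusted p = 0.00507, and up to 0.0360 on leaving out 1 library). Src itself, which stromal cells also make, had 35.0, 36.3 and 37.5 CPM in old and 24.6, 24.8 and 37.9 CPM in young libraries. With all libraries Src was not called (edgeR adjusted p = 0.341). Without young replicate 3, its highest young library, Src was called higher in old cultures (edgeR adjusted p = 0.00639).

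**Figure D4:**
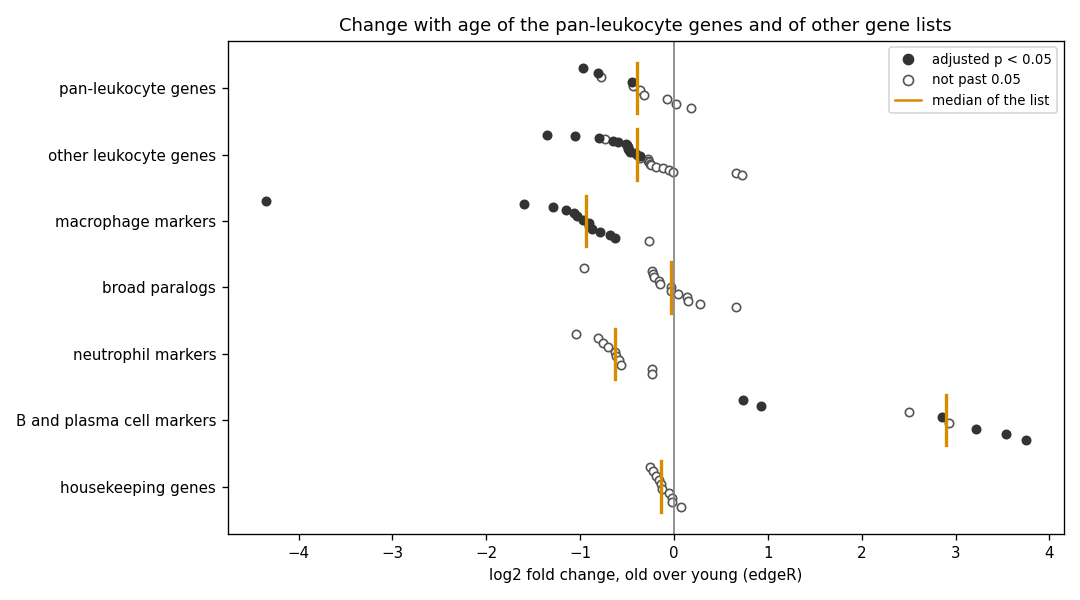
Log2 fold change, old over young, of each tested gene (points, filled where the adjusted p is under 0.05) in 7 gene lists, with the median as an orange bar. Pan-leukocyte and other leukocyte genes share a median of -0.40, macrophage markers lie further left at -0.94, and broad paralogs centre on -0.03.

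Macrophage markers were further from 0 than the pan-leukocyte genes. Of 14 tested, 13 were lower in old cultures (12 to 13 on leaving out 1 library) and 0 higher. Over all tested genes, 4.70% were lower. The median log2 fold change of the macrophage markers was -0.94. To compare them directly with leukocyte genes, libraries were scaled to the geometric mean of the 27 other leukocyte genes, none of which is a pan-leukocyte member or one of these macrophage markers. That scaling treats the leukocyte signal as equal in all libraries and raised the median of all genes by 0.36. On it 2.59% of tested genes were lower and 27.6% higher in old cultures. Ptprcap, 1 of the 27 genes, had 27 to 161 counts per library and shares 100% of its exon length with Coro1b and Rps6kb2. Its part in the scaling was not tested. Of the 14 macrophage markers, 11 were still lower, and 11 without young replicate 3. Siglec1, which encodes CD169, had a log2 fold change of -1.60 with TMM scaling and -1.25 with leukocyte scaling (SE 0.14, adjusted p = 0.00100). Adgre1, which encodes F4/80, had -1.06 and -0.70 (adjusted p = 0.0100), and the growth factor receptor gene Csf1r, with 15.1% of its exon length shared with another gene, had -0.91 and -0.55 (adjusted p = 0.0128). For C1qb and Mrc1 the values with leukocyte scaling were -0.79 and -0.61. Cd68, Mertk and Itgam were the 3 that were not lower on this scale, at 0.09, -0.33 and -0.28 (adjusted p = 0.527, 0.141 and 0.0824), and 68.7% of the exon length of Itgam is shared with another gene.

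On the same leukocyte scale 2 of the 10 pan-leukocyte genes were lower and 0 higher, and their median log2 fold change was -0.03. The 2 were Lyz2 (-0.62, SE 0.17, adjusted p = 0.0285) and Arhgdib (-0.44, SE 0.12, adjusted p = 0.0302), which were lower than the other leukocyte genes as a group on this test. Ptprc, Lcp1, Coro1a and Laptm5 lay between -0.08 and 0.04. Cd53 (0.56, adjusted p = 0.0622), Cd37 (0.37, adjusted p = 0.0856) and Plek (0.29, adjusted p = 0.0858) were on the other side and did not pass. Without young replicate 3, 3 were lower (Cd52 joined at -0.61, adjusted p = 0.0136) and 2 higher, Cd53 at 0.35 (adjusted p = 0.0178) and Cd37 at 0.43 (adjusted p = 0.0470), where 3.12% of all tested genes were lower and 43.3% higher. Neutrophils, which also carry Lyz2, were detectable in these cultures, and their 10 markers had a summed level of 902 to 1696 CPM in old and 1333 to 2316 CPM in young libraries. All 10 marker values were negative, none was called by edgeR or limma-voom, 2 were lower by DESeq2 and 3 at an unadjusted p under 0.05. Over all tested genes, 7.30% were lower by DESeq2 and 23.8% passed the unadjusted threshold in either direction. Ngp and Ltf, the most abundant, had log2 fold changes of -0.58 and -0.24, and the part of neutrophils in the Lyz2 value was not tested.

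**Figure D5:**
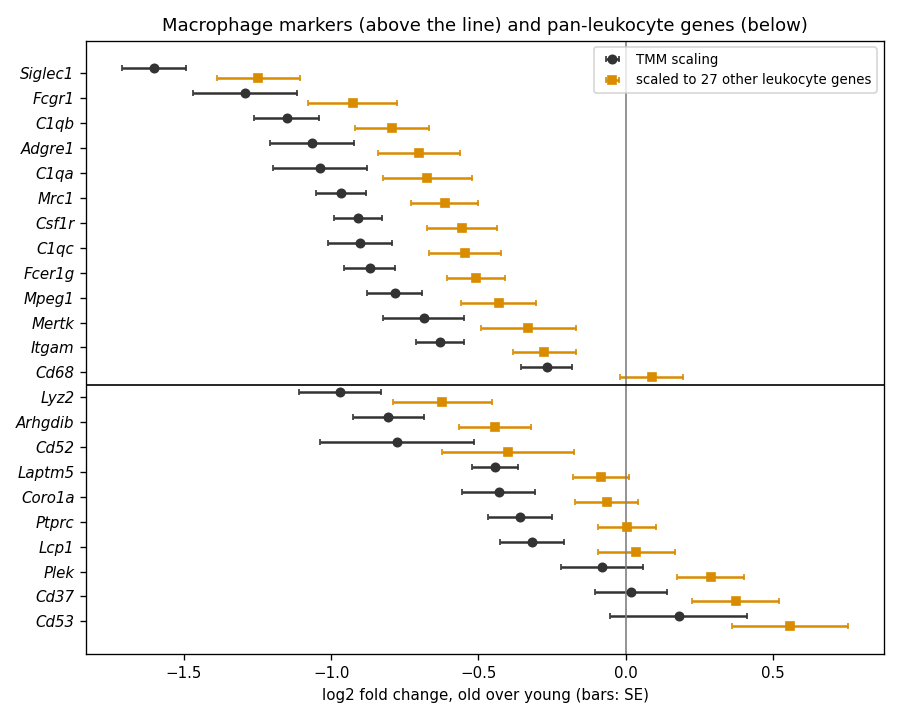
Log2 fold change, old over young, with SE bars, of macrophage markers (above the line, without the low-level Marco) and pan-leukocyte genes (below), with TMM scaling (black) and scaled to 27 other leukocyte genes (orange). On the leukocyte scale Ptprc and Lcp1 sit at 0.00 and 0.04, while Siglec1 stays at -1.25 and Lyz2 at -0.62.

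The members followed each other to different degrees. Over the 6 libraries, the log2(CPM + 1) of Coro1a, Ptprc and Laptm5 correlated with the mean of the other 9 members at r = 0.96, 0.96 and 0.95, while Cd53 and Cd37 gave -0.10 and -0.09. These are descriptions over 6 points that share the age difference and the scaling. Among 7567 tested genes outside the lists with a mean of at least 20 CPM, the 5 closest to the members' mean were Marcksl1, Snrpa1, Coq5, R3hcc1l and Man1c1, with r of 0.99 to 1.00, chosen as the closest and so given with no test. Marcksl1 had 212, 205 and 207 CPM in old and 249, 291 and 236 CPM in young libraries, highest in young replicate 2 like most members, and its change was not called (adjusted p = 0.0826).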

How the data were processed

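The authors deposited raw counts of reads per Ensembl gene for 6 libraries, 3 old and 3 young, with 0 columns left unused. Per the labels' protocols, cDNA came from a SMART-type kit, which leaves strand unmarked, and was read as pairs of 100 bp. Per the submitters' processing notes, the software comprised STAR 2.6.1a, HISAT2 2.1.0, StringTie 1.3.4d, SAMtools 1.9, Picard 2.18.15, Trim Galore 0.50 and cutadapt 1.18, and the build was mm10. For the counting tool, its annotation and its handling of multiple matches: not given in the sources used here. Groups and replicate numbers were read from the labels.

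Symbols matched 37607 of 39017 identifiers, and unmatched ones held 0.339% to 0.398% of counts. Positions, transcript lengths and exon overlaps came from GENCODE M21. In R 4.3.3, genes passing filterByExpr were scaled by TMM and tested by edgeR 4.0.16 (quasi-likelihood, robust), and p-values were adjusted by Benjamini and Hochberg over 15567 genes. SE is the absolute log2 fold change over the square root of F. Alternatives were DESeq2 1.42.0, limma-voom (limma 3.58.1), other scalings and filters, a replicate block, and leaving out each library. Scaling to 27 other leukocyte genes was added after the data were seen. The test was tried on simulated data. No pair of libraries of an age was a duplicate (chi-square per degree of freedom at least 22.2).

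The members and the 21 gene lists were chosen with earlier results of these data known. Named genes are all members, their broad paralogs, Lyz1, up to 4 genes per list with the smallest p (the 2 most abundant where none passed), and the 5 genes most like the members' mean. Col1a1, Spi1, Src, Adgre1, Cd68, Mertk, Itgam, Marco, Ptprcap and Clec9a were chosen after their values were seen. Some genes and lists are not reported here.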

Additional observations from a re-analysis of the deposited data

How the results depend on the processing

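Arhgdib and Lyz2 stayed called and lower under all 17 alternatives, and Laptm5 lost its call with housekeeping scaling (adjusted p = 0.0643) and leukocyte scaling (0.501, and 0.598 without young replicate 3) besides the fits without an old library. The members called numbered 6 with DESeq2, 2 to 6 on leaving out 1 library, and 5 with leukocyte scaling and without young replicate 3. Their median log2 fold change moved to -0.28 with housekeeping scaling, -0.030 with leukocyte scaling and -0.023 with that scaling and without young replicate 3, and ran from -0.45 to -0.30 on leaving out 1 library. Of the 27 other leukocyte genes, 6 were called with housekeeping scaling and 3 to 15 on leaving out 1 library. Leukocyte scaling centres the libraries on these same genes, so a call among them is relative to their own mean. Its 4 calls (2 higher, 2 lower), and 5 without young replicate 3 (2 higher, 3 lower), do not test the list as a whole. Over all tested genes, 1640 were called, 2468 with DESeq2, 4704 with leukocyte scaling, 7403 with that scaling and without young replicate 3, and 727 to 2627 on leaving out 1 library. The sign turned for Plek with housekeeping scaling (0.038), leukocyte scaling (0.29) and that scaling without young replicate 3 (0.19), and on leaving out 1 library Plek ran from -0.21 to 0.061, Cd53 from -0.057 to 0.42 and Cd37 from -0.097 to 0.093. Leukocyte scaling raises the median of all genes by 0.36, and 0.41 without young replicate 3, and with that shift the values of Lcp1 (0.037, and 0.17 without young replicate 3) and Ptprc (0.0047, and 0.010 without young replicate 3) passed 0. For the changes with DESeq2 and on leaving out 1 library, the cause was not tested.

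The labels do not pair same-numbered libraries, and their deviations from the age means correlated at r = 0.088, 0.034 and 0.090 for replicates 1, 2 and 3. Each library correlated best with its own number, with r from -0.098 to 0.018 for the other pairs. Deviations centred within 3 libraries are not independent, so these small values cannot show whether libraries were paired. With the replicate block the counts were 1286 genes, 3 members, 10 other leukocyte genes and 13 macrophage markers, and the members' median was -0.39.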

Other observations

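Markers of other lineages were read in the same libraries. Over all tested genes, edgeR called 5.84% higher and 4.70% lower in old cultures. Of 8 mast cell and basophil markers, 5 were higher in old cultures, or 2 to 5 when a library was dropped, and 0 were lower, with a summed level of 61.7 to 102 CPM in old and 21.5 to 28.0 CPM in young libraries. Among 5 monocyte markers F13a1, the factor XIII A chain, was higher (307 ± 36.4 CPM in old and 90.8 ± 10.4 CPM in young libraries) and Ccr2, the receptor of inflammatory monocytes, lower (9.80 ± 1.82 CPM in old and 55.3 ± 10.7 CPM in young libraries; SD, n = 3 each). Of 8 tested T and NK cell markers, Cd4 was lower and 0 were higher (1 to 3 lower when a library was dropped, and 2 by DESeq2), and the list summed to 4.98 to 11.8 CPM in old and 16.7 to 28.2 CPM in young libraries.

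Of 4 tested dendritic cell markers 1 was higher (0 to 1 when a library was dropped), and of 7 tested osteoclast markers 2 (2 to 3). Of 11 stromal markers 2 were higher (2 to 3 when a library was dropped) and 3 lower (0 to 2). Of 7 osteoblast markers 4 were lower (2 to 5), and of 7 tested endothelial markers 1 was lower (0 to 1). Among 6 cycling-cell markers edgeR and limma-voom called 0 (1 higher by DESeq2 and 1 higher at an unadjusted p under 0.05). Among 10 housekeeping genes edgeR, limma-voom and DESeq2 called 0 (2 lower at an unadjusted p under 0.05), with a median log2 fold change of -0.13. Beside these counts, 5.84% of all tested genes were higher and 4.70% lower by edgeR, and 23.8% passed an unadjusted p under 0.05 in either direction.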
